A study of Homo sapiens with 45 samples.

Results

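The comparison described here sets 2 clonal lines of HEK293F cells side by side before any plasmid was given. The lines are labelled AC1.112 and AC1.230, and each had 3 libraries of polyadenylated RNA at 0 h, so 6 of the 45 libraries of the study enter the comparison, chosen by their titles and time alone. HEK293F cells grow in suspension and descend from HEK293, a human embryonic kidney line that carries adenovirus E1 genes and is used to make recombinant adeno-associated virus (AAV) by transfecting plasmids. The labels describe AC1.112, AC1.230 and also AC1.203 as wild type and clonal, AC1P as wild type and polyclonal, and 293F as wild type. All were kept in Expi293 medium on an orbital shaker, and the 0 h cells were collected before transfection. Other libraries of the same lines were collected at 24 h and 72 h, after transfection with a helper plasmid, a RepCap9 plasmid and a reporter plasmid with inverted terminal repeats. Each clonal line goes back to 1 cell, so a difference between AC1.112 and AC1.230 is a difference between 2 clones, and the labels used here do not say which lines were the high producers of AAV. Nothing in the labels says that the 3 libraries of a line came from separate cultures. Every p-value here therefore reflects no more than the variation among libraries of the same line and time, which may be technical. That variation was estimated over all 45 libraries together.

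Subclones of HEK293 lines are known to carry different numbers of many chromosome segments, because the parent line is aneuploid and keeps changing in culture. A clone can also inherit a gene in a silent state, often with methylation of CG dinucleotides at its promoter, and pass that state on through many divisions. Both kinds of difference can persist within a line. Other differences, such as those of immediate early genes or stress genes, can depend on the state of the culture when it is harvested.

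The 0 h libraries held 34773910 to 47033911 counts in AC1.230 and 27992171 to 49239986 in AC1.112. Mitochondrial genes took 2.73% to 3.38% of these counts. Of 11 markers of HEK293 identity, 10 reached at least 1 CPM (counts scaled to library size by TMM) in all 6 libraries, and PAX2, a kidney transcription factor, ranged from 0.839 to 1.77 CPM. Their summed level was 6389 to 7366 CPM in AC1.112 and 6593 to 6717 CPM in AC1.230. The 6 markers chosen for each other cell type were low. The 6 haematopoietic markers summed to 0.847 to 1.32 CPM in AC1.112 and 1.4 to 1.83 CPM in AC1.230, with PTPRC and HBB at 0. The 6 fibroblast markers summed to 2.93 to 3.47 and 5.22 to 6.69 CPM, and 4 of 6 mature kidney epithelium markers were at 0 in all 6 libraries. Longer lists, with genes such as COL3A1 and PODXL, were not low. Fibroblast markers then summed to 120 to 136 CPM in AC1.112 and 233 to 252 in AC1.230. Mature kidney epithelium markers then summed to 27.5 to 30.1 and 11.4 to 14.2 CPM. These are bulk libraries, so a lower level in some cells and fewer cells with the gene on cannot be told apart.

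The clones differed widely. Of 21242 genes tested with edgeR's quasi-likelihood test, 2070 (9.74%) were at least 2-fold apart with a Benjamini-Hochberg adjusted p under 0.05, the rule for a call here. Of these, 1030 (4.85%) were higher and 1040 (4.9%) lower in AC1.112. Without the fold minimum, 9719 genes (45.8%) passed, 4762 higher (22.4%) and 4957 lower (23.3%). The called genes included 794 that were at least 4-fold apart and 357 at least 8-fold apart. A mean of at least 8 CPM in the higher clone was reached by 416 of the 2070, so most calls concern genes of lower level. With a filter of at least 1 CPM in 3 libraries, 1568 genes were called. In 1913 of the called genes the 3 libraries of AC1.112 did not overlap those of AC1.230, which was also the case for 10826 genes (51%) of all tested. Throughout, a log2 difference is AC1.112 minus AC1.230, and positive values mean higher in AC1.112. Higher and lower, said of members of a gene list, mean an adjusted p under 0.05 with no fold minimum.

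The most extreme genes were on in 1 clone and silent in the other. With on set at 1 CPM or more in all 3 libraries and silent at 3 counts or fewer over the 3 libraries together, 17 genes met the description, 11 on in AC1.112 and 6 on in AC1.230. Of the 17, 11 code for proteins: B3GALNT1, AGGF1, IAH1, GRIA4, OSMR and ERVMER34-1 were on in AC1.112, and MAGEB2, HACD4, MS4A15, GPR22 and TNNI1 in AC1.230. The promoters of 4 genes that were silent or nearly so in 1 clone are shown here with their CG dinucleotides. Of these genes, P4HTM is not among the 17. The stretches are the bases from 250 to 31 before the start site, from RefSeq on GRCh38.p14, written 5′ to 3′ along the gene, with each CG in capitals. They are reference sequence and do not show how the clones differ. AGGF1 (chr5:77030154-77030373, plus strand) and P4HTM (chr3:48989658-48989877, plus strand) were on in AC1.112, and HACD4 (chr9:21031671-21031890, minus strand) and MAGEB2 (chrX:30215313-30215532, plus strand) were on in AC1.230.
AGGF1: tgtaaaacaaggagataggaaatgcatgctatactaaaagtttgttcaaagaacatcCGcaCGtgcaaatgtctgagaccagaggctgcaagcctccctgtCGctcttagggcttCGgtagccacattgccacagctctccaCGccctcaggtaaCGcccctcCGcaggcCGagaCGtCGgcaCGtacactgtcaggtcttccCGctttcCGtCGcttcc
P4HTM: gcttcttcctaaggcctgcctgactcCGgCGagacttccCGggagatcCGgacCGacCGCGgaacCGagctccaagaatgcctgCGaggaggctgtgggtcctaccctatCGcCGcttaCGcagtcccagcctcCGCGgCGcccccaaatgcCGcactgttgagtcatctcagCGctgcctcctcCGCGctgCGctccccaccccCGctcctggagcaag
HACD4: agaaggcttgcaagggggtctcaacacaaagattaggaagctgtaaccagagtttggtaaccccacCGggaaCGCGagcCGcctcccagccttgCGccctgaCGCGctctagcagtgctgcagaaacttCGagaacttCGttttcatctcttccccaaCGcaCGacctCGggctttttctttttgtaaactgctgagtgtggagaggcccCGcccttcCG
MAGEB2: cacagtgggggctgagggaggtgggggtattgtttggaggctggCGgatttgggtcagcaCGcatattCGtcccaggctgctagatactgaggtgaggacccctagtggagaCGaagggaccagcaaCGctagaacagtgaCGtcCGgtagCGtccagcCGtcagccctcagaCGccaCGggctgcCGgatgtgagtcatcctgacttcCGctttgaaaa

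The stretch of AGGF1 held 14 CG dinucleotides, that of P4HTM 21, that of HACD4 14 and that of MAGEB2 13. Over all 35116 RefSeq promoter windows, cut to the same 220 bases, the median was 9, and 92.59% held at least 1 CG. Counts as high as that of AGGF1 or HACD4 occurred in 39.8% of windows, as high as that of MAGEB2 in 42.1%, and as high as that of P4HTM in 23%. The 4 stretches printed held more CG than the median promoter, and CG counts of that size were common among promoters. Other on-or-silent genes differed in this: the windows of GPR22 and G2E3-AS1 held 1 CG each, and those of GRIA4 held 2, 3 and 23. Methylation was not measured in these libraries, and 12 of the 17 on-or-silent genes had a promoter entry.

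B3GALNT1 makes globoside, the glycolipid that carries the P blood group antigen. It lies on chromosome 3 (GRCh38, GENCODE release 29), 161083883 to 161105384, minus strand. Its levels were 31.7, 27.4 and 31.1 CPM in the 3 libraries of AC1.112, and no read was counted in any library of AC1.230. Against a floor of 3 counts over the 3 libraries, B3GALNT1 was at least 1145-fold higher in AC1.112. The gene stayed on at 24 h and 72 h in AC1.112 (means of 33.5 and 28.6 CPM), while AC1.230 had 0 counts at 24 h and 1 at 72 h. At 0 h, AC1P had a mean of 14.6 CPM, AC1.203 had 0.011 and 293F had 0. The gene overlaps NMD3 on the other strand, and the strand setting used for counting is not given in the sources used here.

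AGGF1, a protein with a G-patch and a forkhead-associated domain first described as an angiogenic factor, lies on chromosome 5, 77029251 to 77065234, plus strand. It had 16.3, 15.3 and 17.4 CPM in AC1.112 and no count in AC1.230, at least 617-fold higher in AC1.112. In this case the silent clone was the exception: AGGF1 averaged 31.9 CPM in AC1P, 57.4 in AC1.203 and 63.2 in 293F. IAH1, an esterase on chromosome 2 (9473658 to 9496543), showed the same arrangement; it overlaps ADAM17 on the other strand. Its levels were 11.8, 12.2 and 11.2 CPM in AC1.112, against 2 counts over the 3 libraries of AC1.230, a ratio of 672 (exact 95% interval for counting error, 186 to 5554). AC1P, AC1.203 and 293F had means of 25.7, 38.1 and 22.6 CPM for IAH1. GRIA4, a subunit of AMPA glutamate receptors, had 6.73, 5.95 and 6.2 CPM in AC1.112 and no count in AC1.230, at least 241-fold higher. OSMR, the receptor subunit for oncostatin M, had 2.82, 2.56 and 3.5 CPM against 3 counts in AC1.230, a ratio of 110.2 (37.3 to 537), and it overlaps RICTOR on the other strand. ERVMER34-1, which encodes the envelope protein of an endogenous retrovirus, had 2.01, 1.74 and 1.5 CPM against no count and was at least 68.4-fold higher.

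MAGEB2, an X-linked gene of the MAGE family that is normally restricted to the germ line and is switched on in some tumours, went the other way. It had 7.07, 7.23 and 5.44 CPM in AC1.230 and a single count in AC1.112, a ratio of 723 in favour of AC1.230 (129 to 28600). The mean in AC1P was 23.5 CPM, above both clones. HACD4, of an enzyme family for the elongation of very long fatty acids, had 3.56, 4.49 and 4.69 CPM in AC1.230 and no count in AC1.112, at least 151-fold lower in AC1.112. MS4A15, a membrane protein, had 3.47, 2.61 and 2.83 CPM against no count, at least 109-fold lower, and GPR22, an orphan receptor that overlaps COG5 on the other strand, had 2.38, 2.45 and 2.64 CPM against 1 count (ratio 269, 47.9 to 10659). TNNI1, the troponin I of slow muscle, had 1.2, 1.21 and 1.24 CPM in AC1.230 and 3 counts in AC1.112 (ratio 44, 14.8 to 216), all of them in replicate 1. AC1P had 0.699 CPM for HACD4, 0.299 for MS4A15, 0.166 for GPR22 and 0.096 for TNNI1, all below AC1.230 and above AC1.112.

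Several abundant genes were nearly silent in AC1.230 with a few counts left. ZNF22, a zinc finger protein on chromosome 10, had 36.2, 35 and 37.6 CPM in AC1.112 and 0.068, 0.0264 and 0.187 CPM in AC1.230 (log2 difference 8.64, SE 0.17, adjusted p = 7.41e-48 in edgeR). The divergent transcript ZNF22-AS1 was among the 17 on-or-silent genes as well, with no count in AC1.230. GNE, the enzyme that makes the precursor of all sialic acids, had 30.3, 29.4 and 32.8 CPM against 0.181, 0.132 and 0.187 (log2 difference 7.5, SE 0.16, edgeR adjusted p = 6.50e-46). AC1P (31.6 CPM), AC1.203 (45.4 CPM) and 293F (34 CPM) all expressed GNE at the level of AC1.112 or above. ZSCAN18, a zinc finger and SCAN domain protein, had 20.4, 21.4 and 19.6 CPM against 0.317, 0.158 and 0.187 (log2 difference 6.47, SE 0.15). For P4HTM, a transmembrane prolyl hydroxylase whose promoter is shown above, the levels were 44.8, 42.1 and 43.1 CPM against 0.521, 0.132 and 0.808 (log2 difference 6.51, SE 0.14). P4HTM had no count in AC1.203, and it overlaps WDR6 on the same strand. MARVELD2, the tight junction protein tricellulin, had 8.59, 8.85 and 8.86 CPM against 0.113, 0.132 and 0.218 (log2 difference 5.85, SE 0.28).

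CCN3, a matricellular protein, was the most abundant of the genes named by their fold change: 293, 297 and 282 CPM in AC1.112 and 16.7, 15.2 and 15.5 CPM in AC1.230 (log2 difference 4.2, SE 0.10, edgeR adjusted p = 5.84e-27), with 92.5 CPM in AC1P and 1.03 CPM in 293F. HAS2, which makes hyaluronan, had 23.9, 24.4 and 27.4 CPM against 2.18, 1.66 and 2.3 (log2 difference 3.62, SE 0.16). SLC16A14, of the monocarboxylate transporter family, had 38.8, 40.1 and 39.2 CPM against 2.97, 3.85 and 2.74 (log2 difference 3.62, SE 0.10). PTCHD1, a membrane protein with a patched domain, had 7.54, 9.7 and 9.7 CPM against 0.34, 0.475 and 0.404 (log2 difference 4.46, SE 0.23).

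Among the abundant genes lower in AC1.112, BCL6B stood apart. This transcriptional repressor had 22.7, 23 and 25.4 CPM in AC1.230 and 4 counts in all over the libraries of AC1.112 (0.0224, 0 and 0.116 CPM; log2 difference -9.20, SE 0.27, edgeR adjusted p = 1.44e-38). AC1P had 3.06 CPM, AC1.203 had 6.43 and 293F had 0.292. The next 11 genes by fold change ranged from -3.16 to -2.33. SPARC, a collagen-binding matrix protein, had 27.2, 26.8 and 23.6 CPM in AC1.112 against 178, 167 and 183 in AC1.230 (log2 difference -2.76, SE 0.07, edgeR adjusted p = 4.35e-41). COL3A1, the chain of type III collagen, had 23, 21.9 and 23.8 CPM against 132, 125 and 139.6 (-2.53, SE 0.08). EMILIN1, a glycoprotein of elastic fibres, was at 3.31, 3.73 and 3.31 CPM against 25.1, 25.7 and 26.3 (-2.89, SE 0.13), and MMP14, a membrane-bound matrix metalloproteinase, at 1.3, 1.08 and 1.2 CPM against 8.12, 7.33 and 10.3 (-2.83, SE 0.20). In none of these genes did the libraries of the clones overlap.

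The remaining genes of that group have other roles. VAMP8, a SNARE protein of late endosomes and secretory granules, had 5.86, 6.77 and 5.97 CPM in AC1.112 against 48.1, 45.3 and 46.6 (-2.91, SE 0.10). CRABP2, which carries retinoic acid to the nucleus, had 16.7, 15.3 and 17.1 CPM against 103, 104 and 99.5 (-2.64, SE 0.07). PLTP, the phospholipid transfer protein, had 1.77, 1.32 and 1.2 CPM against 13.3, 13.8 and 12.7 (-3.16, SE 0.13). SERPINF1, the secreted factor PEDF, had 13.7, 11.8 and 11.4 CPM against 65.4, 57.2 and 64.1 (-2.33, SE 0.07). HLA-DOA and CD3G, known from antigen presentation and from T cells, were at 2.35, 2.88 and 1.96 against 15.7, 15.1 and 17.3 CPM, and at 1.5, 1.56 and 1.2 against 10.5, 11.4 and 11.9 CPM. PTPRC, the pan-leukocyte marker, had no count in either clone, but 2 of the other haematopoietic markers were lower. CSF1R, the receptor of a macrophage growth factor, averaged 1.68 CPM against 4.36 (-1.37, SE 0.26), and CD34, a marker of blood progenitors and endothelium, 0.0501 against 0.589 (-3.36, SE 0.72). Of 9 such markers tested, CD14 was the 1 higher (2.40, edgeR adjusted p = 0.0266), at 0.24 against 0.0427 CPM. It did not pass without replicate 1 or 3 of AC1.230 or replicate 1 of AC1.112 (p from 0.0741 to 0.11), and its difference was 3.96 without replicate 2 of AC1.230. The part of such cells in the differences was not tested. ACOT2, a mitochondrial thioesterase that may share reads with its near copy ACOT1, had 3.67, 3.15 and 4 CPM against 17.7, 18.5 and 19.8 (-2.38, SE 0.12).

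Differences also ran along chromosomes. Over all genes tested the median log2 difference was -0.0018, but on chromosome 14 it was -0.54, with 423 of 656 genes lower in AC1.112 and 27 higher. The next largest medians were 0.32 on chromosome 15 (331 of 753 genes higher, 47 lower), 0.30 on chromosome 9, -0.30 on chromosome 13, 0.23 on chromosome 3, -0.23 on chromosome X and 0.22 on chromosome 11. Chromosomes 6 and 21 had medians of -0.02 and -0.01. These medians recurred in the other libraries of the lines: chromosome 14 gave -0.53 at 24 h and -0.59 at 72 h, and chromosome 15 gave 0.30 and 0.31.

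Within chromosomes, the shift covered blocks. In 10 Mb windows with at least 15 genes, 52 of 297 had a median of at least 0.3 in either direction, 29 higher and 23 lower in AC1.112. All 52 had the same sign at 24 h and at 72 h, though the window of chromosome 2 from 180 to 190 Mb had only -0.13 at 24 h. On chromosome 14 all 9 windows from 20 to 110 Mb were lower (medians from -0.60 to -0.32), with 419 of 649 genes lower and 27 higher. On chromosome 3 the 6 windows of the first 60 Mb were higher, from 0.34 to 0.57, with 269 of 465 genes higher and 24 lower. On chromosome 11 the 6 windows from 70 to 130 Mb were higher, from 0.45 to 0.74, the highest of all windows at 100 to 110 Mb (35 of 45 genes higher, 0 lower). On chromosome 9 the 6 windows from 80 to 140 Mb lay between 0.38 and 0.59. Smaller blocks were chromosome 1 from 10 to 30 Mb (0.43 and 0.46), chromosome 15 from 20 to 60 Mb (0.35 to 0.41), 5 windows of chromosome 13 (-0.50 to -0.30) and the last window of chromosome 4 (180 to 190 Mb, -0.63). Chromosome 10 had 4 higher windows between 30 and 110 Mb (0.32 to 0.49), with 135 of 264 genes higher and 18 lower. Single lower windows lay on chromosome 1 from 190 to 200 Mb (-0.34) and on chromosome 2 from 180 to 190 Mb (-0.30). Chromosome X had 6 lower windows (-0.70 to -0.31) and 1 higher (0.30). The ends of the blocks depend on the limit of 0.3. On chromosome 1 the windows at 0 to 10 and 30 to 40 Mb had medians of 0.27 and 0.29. On chromosome 15 the windows from 60 to 110 Mb were higher as well, with medians from 0.187 to 0.299. DNA copy number was not measured in these libraries.

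Each clone was also compared with AC1P and with 293F at 0 h. Against AC1P 749 genes were called for AC1.112 (3.53%) and 1313 for AC1.230 (6.18%), and against 293F 4841 (22.8%) and 4822 (22.7%). Both clones are set against the same AC1P libraries, so their values are only given side by side. Set beside AC1P, the blocks fell into different kinds. In the 6 windows of chromosome 3, AC1.112 was above AC1P by medians of 0.40 to 0.83, and AC1.230 differed from AC1P by -0.02 to 0.14. In the 6 windows of chromosome 9 the reverse held: AC1.112 differed from AC1P by -0.17 to 0.09 and AC1.230 was below it by medians of -0.52 to -0.30. On chromosome 14 both clones were away from AC1P, AC1.112 by -0.41 to -0.32 and AC1.230 by 0.12 to 0.27. On chromosome 4, in the window at 180 to 190 Mb, AC1.112 was at -0.68 and AC1.230 at -0.07.

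Most called genes lay outside these blocks. Windows with a median of 0.3 or more in size contained 17.5% of the genes and 25.8% of the called genes. Inside them 14.4% of genes were called and outside them 8.78%. After the median of its window was subtracted, 1703 of 2017 called genes were still 2-fold apart. As examples, P4HTM lies in the block of chromosome 3 (window median 0.41) and ACOT2 and MMP14 on chromosome 14 (-0.60 for both). Their differences were several times larger than those medians. Other genes named above may lie in such windows as well. Of the on-or-silent genes, GRIA4 (window median 0.74), MAGEB2 (-0.54), G2E3-AS1 (-0.54) and ENSG00000256081 (-0.60, though it was on in AC1.112) lie in such windows, and B3GALNT1, AGGF1 and IAH1 do not, nor does BCL6B.

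Groups of genes with a shared role are described next by how many of their tested members were higher or lower. Of all genes tested, 22.4% were higher and 23.3% lower. The median of each list is set beside -0.0018 for all genes. For some lists a window-adjusted median follows, with the window median subtracted from each member that has one. Window medians are given for some genes only, so a gene named without one may also lie among shifted neighbours. Immediate early genes, which are switched on within minutes by growth factors and stress, had the largest share of members on the higher side among the lists shown here. Of 34 tested, 24 were higher in AC1.112 and 1 lower, with a median log2 difference of 0.60 (window-adjusted 0.59). The single lower member was KLF6 (-0.14, edgeR adjusted p = 0.0493), which did not pass when any 1 of the 6 libraries was left out (adjusted p from 0.0578 to 0.26). The AP-1 subunit FOSB had 2.21, 1.32 and 2.5 CPM in AC1.112 and 0.34, 0.317 and 0.218 CPM in AC1.230 (2.73, SE 0.26, edgeR adjusted p = 5.62e-14). FOS had 13, 14.1 and 14 CPM against 5.62, 4.96 and 5.66 (1.34, SE 0.12), although it lies on chromosome 14, in a window with a median of -0.60. The zinc finger factor EGR1 had 34.5, 37.7 and 39.6 CPM against 11.7, 12 and 12.7 (1.62, SE 0.10), and ARC, a synaptic capsid-like protein, 9.33, 11 and 9.59 CPM against 3.67, 2.19 and 2.21 (1.87, SE 0.13). FOSL1 (1.43), the MAP kinase phosphatase DUSP4 (1.22), ATF3 (0.95) and JUN (0.41) were higher too.

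The lead of AC1.112 in these genes shrank after transfection for several of them. For FOSB the difference was 2.73 at 0 h, 0.90 at 24 h and 0.60 at 72 h, and the interaction of clone and time passed the test (edgeR F test with 2 degrees of freedom, adjusted p = 6.08e-06). In mean CPM, FOSB went from 0.291 to 3.1 and 3.33 in AC1.230 and from 2.01 to 5.82 and 5.03 in AC1.112. ARC went from a difference of 1.87 to 1.09 and 0.53 (interaction adjusted p = 7.70e-07), and DUSP4 from 1.22 to 0.98 and 0.08 (5.24e-07). SPRED2, an inhibitor of the same MAP kinase pathway, went from 0.96 to 0.85 and -0.27 (2.00e-12). For FOS the interaction did not pass (1.34, 0.98 and 0.78, adjusted p = 0.0537). Of the list, 24 members were higher at 24 h and 13 at 72 h, with medians of 0.53 and 0.19. GADD45B, a growth arrest gene from the list of YAP and TEAD targets, had 48.6, 48.8 and 46.3 CPM in AC1.112 at 0 h against 11.3, 12.5 and 11.8 in AC1.230 (2.02, SE 0.08), then 1.1 at 24 h and 0.90 at 72 h (interaction adjusted p = 1.50e-11).

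**Figure D1:**
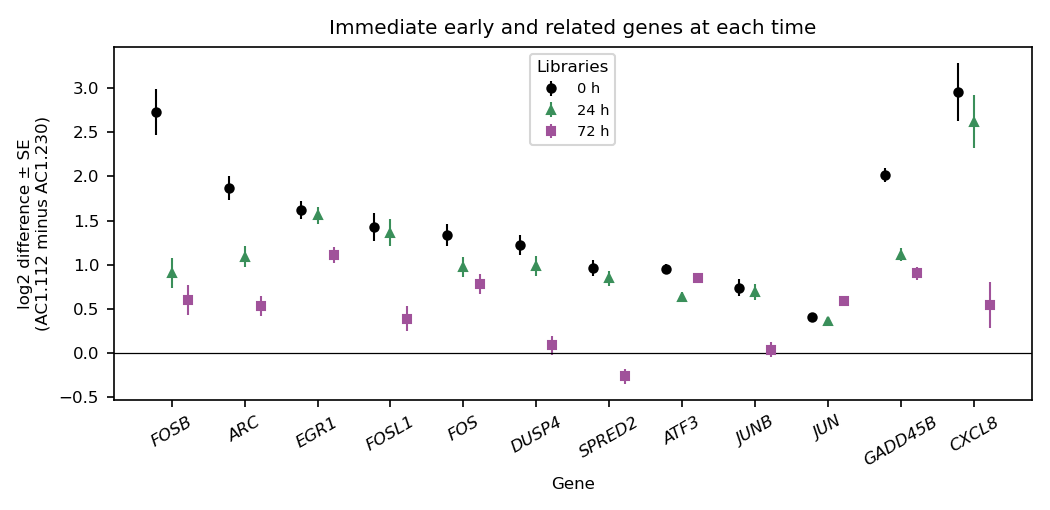
Log2 difference (AC1.112 minus AC1.230) with its standard error for 10 immediate early genes, GADD45B and CXCL8 at 0 h, 24 h and 72 h. The difference of FOSB falls from 2.73 at 0 h to 0.60 at 72 h, while that of JUN goes from 0.41 to 0.59.

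Targets of p53 were mostly higher in AC1.112, 19 of 28 against 6 lower, with a median of 0.34 (window-adjusted 0.22). In HEK293 cells p53 is bound by the adenoviral E1B protein. CDKN1A, the cell cycle inhibitor p21, had 239, 240.3 and 221 CPM in AC1.112 and 134, 132 and 153 in AC1.230 (0.74, SE 0.05, edgeR adjusted p = 1.89e-21). MDM2, the ubiquitin ligase of p53, had 368, 376 and 374 CPM against 234, 258 and 239 (0.61, SE 0.05), and BTG2 105, 109 and 104 against 61, 60.7 and 64.8 (0.77, SE 0.05). Among the lower members were CCNG1 (-0.54) and BAX (-0.25). The differences of CDKN1A, MDM2 and BTG2 were smaller at 72 h (0.19, 0.23 and 0.34), each with an interaction adjusted p of at most 6.40e-05.

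Of 44 genes of the TGF-beta and BMP pathway, 20 were higher and 4 lower in AC1.112 (median 0.23). Among the ligands, TGFB1 had 16.1, 16.1 and 13.9 CPM against 8.14, 8.79 and 8.02 (0.89, SE 0.09), and the receptor TGFBR2 41.6, 42.1 and 39.6 against 24.4, 22.2 and 24.7 (0.79, SE 0.06). The target genes ID2 (0.76), ID3 (0.86) and SKIL (1) were higher as well. The 4 lower members were the activin antagonist FST (-1.78), the ligand BMP4 (-0.63), SMAD9 (-0.27) and the receptor ACVR2A (-0.22). Several members lie in shifted windows: TGFBR2 on chromosome 3 (window median 0.48), ID3 on chromosome 1 (0.46), BMP4 on chromosome 14 (-0.56) and SMAD9 on chromosome 13 (-0.30). With the window median subtracted from each member, the median of the list was 0.25 over 43 members. SMAD9 did not pass without AC1.112 replicate 1 (-0.21, adjusted p = 0.0648). ACVR2A did not pass without AC1.112 replicate 1 or 3 (-0.20, adjusted p = 0.0596, and -0.16, 0.139) or AC1.230 replicate 2 or 3 (-0.19, 0.0809, and -0.17, 0.103). By 72 h the difference of TGFB1 was -0.16 (interaction adjusted p = 4.78e-08), and that of TGFBR2 was 0.70 (0.606).

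Targets of YAP and TEAD, the effectors of the Hippo pathway, had 16 of 28 members higher and 5 lower (median 0.36, window-adjusted 0.22). Besides CCN3, the higher members included ANKRD1, at 1.48, 1.16 and 1.27 CPM against 0.295, 0.396 and 0.155 (2.17, SE 0.29), AMOTL1 (0.86), CCN2 (0.62) and YAP1 itself (75, 74.2 and 76.2 CPM against 50.8, 53.8 and 53.6; 0.51, SE 0.05). YAP1 and AMOTL1 lie in the higher block of chromosome 11, in windows with medians of 0.74 and 0.65. The 5 lower members were NT5E (-2.32), AJUBA (-0.74), DLC1 (-0.59), TEAD2 (-0.37) and AMOTL2 (-0.34).

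Host factors of AAV entry showed many small differences. Of 35 tested, 19 were higher and 5 lower in AC1.112, the median was 0.17, and none was 2-fold apart. KIAA0319L, the receptor AAVR used by most serotypes, had 121, 119.5 and 119 CPM in AC1.112 and 105, 99 and 113 in AC1.230 (0.18, SE 0.05, edgeR adjusted p = 0.00214). GPR108, a membrane protein needed for transduction by most serotypes, had 45.2, 43.6 and 40.6 CPM against 34.9, 34.6 and 37.9 (0.27, SE 0.06). The laminin receptor RPSA (0.40), the integrin subunits ITGAV (0.35) and ITGB5 (0.38) and the endosomal protease CTSL (0.56) were higher. The 5 lower members were UGDH, which supplies heparan sulphate synthesis (-0.53), the Golgi protein TM9SF2 (-0.46), STX16 (-0.43), VPS52 (-0.40) and VPS53 (-0.25). TM9SF2 lies on chromosome 13, in a window with a median of -0.50. RPSA lies on chromosome 3 (window median 0.48) and CTSL on chromosome 9 (0.43), while ITGAV lies on chromosome 2 in a lower window (-0.30). With the window median subtracted from each member, the median of the list was 0.09.

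Gene lists of immune surveillance did not share 1 direction. Of 20 nucleic acid sensors and interferon pathway genes, 5 were higher and 7 lower (median -0.02). Of 28 genes of the NF-kB pathway and its targets, 11 were higher and 4 lower (median 0.12). In the pathway that loads peptides on HLA class I, 11 of 20 members were lower in AC1.112 and 4 higher (median -0.29, window-adjusted -0.20). HLA-B had 52.8, 55.3 and 52.3 CPM in AC1.112 against 96.8, 81.5 and 104 in AC1.230 (-0.81, SE 0.06), and HLA-C 113, 116 and 112 against 165, 149 and 173 (-0.51, SE 0.06). Reads of these near-identical genes may have been divided between them. The 4 higher members were the light chain B2M (0.46), which lies on chromosome 15 in a window with a median of 0.40, PDIA3 (0.23, in the same window), TAP1 (0.24) and NLRC5 (0.55). NLRC5 did not pass without AC1.112 replicate 1 (0.42, adjusted p = 0.128) or AC1.230 replicate 2 (0.46, adjusted p = 0.0796). Of 53 interferon-stimulated genes, 18 were lower and 13 higher (median -0.11). The lower ones included BST2 (tetherin), at 4.18, 3.04 and 3.2 CPM against 11.4, 8.73 and 10.6 (-1.55, SE 0.16), OAS3 (-1.92) and IFIT1 (-1.54). SP100, a component of the nuclear bodies that restrict incoming viral DNA, was higher, 28.9, 26.1 and 29 CPM against 10.9, 8.6 and 10 (1.5, SE 0.10), and stayed so at 24 h (1.45) and 72 h (1.48).

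The unfolded protein response expands the capacity of the endoplasmic reticulum. Its genes were lower in AC1.112 in 18 of 30 cases and higher in 4 (median -0.20, window-adjusted -0.25). XBP1 had 99.5, 92.7 and 90.9 CPM against 135, 127 and 134 (-0.48, SE 0.05), the chaperone HSPA5 502, 521 and 475 against 578, 556 and 599.6 (-0.21, SE 0.05) and the disulphide isomerase PDIA4 186, 188 and 184 against 277, 254 and 291 (-0.56, SE 0.05). The 4 higher members were SYVN1 (0.32), PPP1R15A (0.24), PDIA3 (0.23) and HYOU1 (0.16). HYOU1 did not pass without AC1.112 replicate 2 (0.14, adjusted p = 0.0681) or AC1.230 replicate 2 (0.11, 0.128), and its value was 0.25 without AC1.230 replicate 3. At 24 h the list was balanced, with 9 higher and 9 lower and a median of 0.05, and HSPA5, which lies on chromosome 9 in a window with a median of 0.59, was then higher in AC1.112 (0.35, interaction adjusted p = 2.67e-07).

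Of 40 genes of the ATF4 response, which governs amino acid synthesis and uptake, 9 were higher and 13 lower at 0 h (median -0.06), 23 higher and 6 lower at 24 h (0.17), and 15 higher and 7 lower at 72 h (0.06). The difference changed with time in 18 of the 40 by the interaction test. ASNS, the asparagine synthetase, had 76.8, 75 and 78.7 CPM in AC1.112 against 98.9, 98.1 and 96 in AC1.230 at 0 h (-0.35, SE 0.06), and at 24 h the difference was 0.56 (interaction adjusted p = 1.01e-12). PSAT1, of serine synthesis, went from 0.26 at 0 h to 1.19 at 24 h and 0.61 at 72 h (4.99e-15). The cystine transporter SLC7A11 was higher at each time (1.13, 2.04 and 1.39), and PCK2, on chromosome 14, was lower at each time (-1.16, -1.32 and -0.92).

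Ribosomal protein genes, whose products are made in equal amounts, had 34 of 78 members higher and 6 lower (median 0.14, window-adjusted 0.11). The members furthest apart lay in blocks. RPS25 on chromosome 11 had 1162, 1238 and 1121 CPM against 633, 648 and 639.6 (0.87, SE 0.06, window median 0.60). RPS3 on the same chromosome had 4053, 3922 and 3905 CPM against 2432, 2504 and 2469 (0.68, window median 0.45), and RPL35 on chromosome 9 was at 0.65 in a window of 0.59. In the lower direction, RPL36AL on chromosome 14 was at -0.90 (window median -0.43) and RPL10 on chromosome X at -0.33 (window median -0.45). RPL36 (-0.24) and RPL8 (-0.24) were lower in windows with medians of -0.04. Copies of these genes elsewhere in the genome can take up or give away some of their reads.

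Among 38 DNA repair genes, 15 were higher and 12 lower (median 0.04). The higher ones included ATM, the kinase that senses double-strand breaks, at 63.3, 67.6 and 79 CPM against 41.7, 46 and 37.2 (0.74, SE 0.12), MRE11 (0.65) and H2AX (0.64), all on chromosome 11 in windows with medians of 0.74, 0.65 and 0.60. TP53BP1 (0.7) lies on chromosome 15 (window median 0.40), and RAD51B, lower at -0.73, lies on chromosome 14 (-0.56). Of the writers of DNA methylation, DNMT3B was lower in AC1.112, 22.8, 24 and 21.1 CPM against 37, 37.3 and 41.1 (-0.76, SE 0.08, edgeR adjusted p = 4.70e-12). DNMT3A was lower too (-0.35), while DNMT1 had a difference of -0.02 (adjusted p = 0.794). Of 92 chromatin regulators 35 were higher and 29 lower (median -0.0017), led by the acetyltransferase KAT2B (1.27) and the chromatin remodeller SMARCA1 (-1.43).

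Collagens were divided, 8 higher and 15 lower of 37 (median -0.25, window-adjusted -0.34). Besides COL3A1, COL2A1 was lower at 114, 125 and 107 CPM against 251, 241 and 269 (-1.14, SE 0.06), and COL6A3 at 0.313, 0.687 and 0.308 against 4.71, 3.88 and 4.54 (-3.30, SE 0.36). COL6A1 went the other way, 344, 366 and 323 CPM against 219.7, 221 and 234 (0.62, SE 0.05), as did COL12A1 (1.36). Of 51 integrins, laminins and matrix glycoproteins, 19 were higher and 17 lower. Tenascin TNC had 1417, 1596 and 1500 CPM against 932, 933 and 1026 (0.64, SE 0.06), and the laminin chain LAMB2 145, 141 and 141 against 78.6, 68.3 and 74.6 (0.95, SE 0.06). Of 10 fibroblast markers tested, 5 were lower and 2 higher (median -0.80). Besides COL3A1, the lower ones were the growth factor receptor PDGFRB (-1.20), the calcium-binding S100A4 (-1.10), the proteoglycan LUM (-0.96) and fibronectin FN1 (-0.71), and the higher ones were TAGLN (1.27) and ACTA2 (0.31), both of the actin cytoskeleton. DCN, FAP and THY1 stayed under 1 CPM. The part of other cells in the collagen differences was not tested.

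Imprinted genes had 13 of 27 members lower and 4 higher (median -0.50, window-adjusted -0.32). IGF2, the paternally expressed growth factor, had 4.36, 3.52 and 3.27 CPM against 12.7, 13 and 10.6 (-1.69, SE 0.13), and the placental gene PEG10 540.4, 589 and 581 against 745, 786 and 758 (-0.42, SE 0.06). The 4 higher members were PPP1R9A (2.06), INPP5F (0.64), UBE3A (0.34) and RB1 (0.30). Clustered protocadherins are chosen by promoter and tend to be fixed in a clone. Of 53 protocadherins, 16 were lower and 4 higher (median -0.49, window-adjusted -0.29). PCDHB11 had 0.582, 0.925 and 0.886 CPM against 2.74, 3.19 and 3.02 (-1.92, SE 0.25), PCDHB12 was at -1.63 and PCDHB14 at -1.41. The 4 higher were PCDH10 (0.68), PCDH17 (0.62), PCDHGC3 (0.47) and PCDH9 (0.22). PCDH9 did not pass without AC1.112 replicate 3 (0.16, adjusted p = 0.187) or AC1.230 replicate 1 or 2 (0.24, 0.0513, and 0.21, 0.077). Reads of the beta and gamma clusters may be divided between near copies.

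On the X chromosome, 17 of 26 genes of the BEX, TCEAL, ARMCX and MAGE families were lower and 1 higher (median -0.39, window-adjusted -0.41). MAGED1, an adaptor of cell death signalling, had 88, 90 and 81.2 CPM against 185, 179 and 188 (-1.09, SE 0.06), and MAGED2 177, 164 and 169 against 341, 321 and 335 (-0.96, SE 0.05), both in a window with a median of -0.56. BEX5 (-1.83) and ARMCX2 (-1.51) lie in a window with a median of 0.04. The higher gene was TCEAL3 (0.57), which did not pass without AC1.112 replicate 1 (0.47, adjusted p = 0.0741) or AC1.230 replicate 3 (0.48, adjusted p = 0.0604).

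Genes of the cell cycle gave no common direction. Of 61 G1/S genes 16 were higher and 27 lower (median -0.10), and of 49 G2/M genes 16 were higher and 20 lower (0.04). E2F2 was the member furthest apart, 25.6, 28.4 and 25.2 CPM against 8.75, 9.5 and 9.3 (1.53, SE 0.08), with the inhibitors CDKN2D (1.17) and CDKN2B (1.05) also higher and CDKN1B lower (-0.77). MKI67 had 227, 273 and 289 CPM against 165, 182 and 178 (0.59, SE 0.08). Of 73 nuclear genes of oxidative phosphorylation, 31 were lower and 10 higher (median -0.13), and no mitochondrially encoded gene of 13 passed the test. MT-CO3, a subunit of cytochrome oxidase (0.23, edgeR adjusted p = 0.13), did pass with other sets of libraries. Its edgeR adjusted p was 0.00317 when only the 6 libraries were fitted, 0.0239 with the 15 libraries at 0 h and 0.0442 without replicate 3 of AC1.230. In lipid synthesis, the desaturase FADS1 had 184, 187 and 184 CPM against 75.8, 65.7 and 76 (1.35, SE 0.05), and of 36 genes that make sterols and fatty acids 9 were higher and 13 lower (median -0.05), HMGCS1 (-0.57) and NSDHL (-0.93) among the lower. At 24 h 19 of these genes were higher and 6 lower, and 17 passed the interaction test.

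Markers of lineage differed gene by gene. NES, the intermediate filament of neural progenitors, was lower at 8.05, 7.77 and 6.82 CPM against 34.4, 36.5 and 39.4 (-2.27, SE 0.10), and the neurofilament NEFL, expressed in HEK293 cells, was at 1155, 1168 and 1098 against 1478, 1424 and 1466 (-0.35, SE 0.05). The keratin partners went opposite ways, KRT18 at 70.5, 71.9 and 66.7 CPM against 37.1, 38 and 43.4 (0.82, SE 0.06) and KRT8 at 36.8, 39.4 and 32.7 against 65, 62.5 and 70.8 (-0.86, SE 0.06). Of 27 kidney developmental transcription factors, 6 were higher and 8 lower (median -0.21), with SIX2, a factor of nephron progenitors, lower (-1.92) and LHX1 higher (1.1). The podocyte protein PODXL (1.84) was higher. Of 24 neuronal genes, 7 were higher and 5 lower (median 0.07), with the adhesion molecule NCAM1 (1.36) and the microtubule protein MAPT (1.01) among the higher. The mesenchymal factor SNAI2 was lower, 62, 63.8 and 61.5 CPM against 149, 158 and 147 (-1.28, SE 0.06), whereas ZEB1 (0.94) and the tight junction proteins OCLN (1.63) and TJP1 (0.75) were higher. FZD6, a Wnt receptor, had 29.7, 26.8 and 31 CPM against 5.3, 5.86 and 5.66 (2.38, SE 0.09).

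At 24 h 2059 genes (9.69%) were called between the clones, 731 higher (3.44%) and 1328 lower (6.25%). At 72 h 1762 (8.29%) were called, 746 higher (3.51%) and 1016 lower (4.78%). Without the fold minimum, 43.9% of genes passed at 24 h (21.9% higher, 22% lower) and 42.9% at 72 h (22% higher, 20.9% lower). Of the 0 h calls, 1182 were called with the same sign at 24 h, 57.1% of the 0 h calls and 57.4% of the 24 h calls, and 1 with the opposite sign. At 72 h, 1123 were shared with the same sign, 54.3% of the 0 h calls and 63.7% of the 72 h calls, and 3 had the opposite sign. The sign was the same in 94.2% of the 0 h calls at 24 h and in 95.4% at 72 h, against 76% and 78.4% of all genes tested. In all, 907 genes were called at the 3 times, 43.8% of the 0 h calls. A change of the difference with time passed the interaction test for 2094 genes (9.86%), and for 212 (0.998%) it was also at least 1 on the log2 scale. EEF1A2, an elongation factor of nerve and muscle, went from 2.46 at 0 h (36.4, 42 and 37.9 CPM against 6.96, 7.73 and 6.37) to 1.31 and 1.01 (interaction adjusted p = 1.58e-14). TXNIP, which restrains glucose uptake, went from 1.14 to 0.27 and 0.86 (5.63e-14).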

How the data were processed

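Polyadenylated RNA of 45 libraries in 15 groups was sequenced after a stranded library preparation, per the labels' protocols. The authors deposited raw counts per gene, made with HISAT2, Subread and featureCounts on GRCh38, per the submitters' processing notes; the sources used here do not name versions, annotation release or strand setting. Counts of all 45 libraries were fitted as deposited with edgeR 4.0.16 in R 4.3.3 (TMM scaling, filterByExpr with a minimum count of 10 and a minimum total of 15, robust quasi-likelihood fit, Benjamini-Hochberg over 21242 genes, limma 3.58.1 loaded by edgeR). The standard error is the log2 difference divided by the root of F. DESeq2 1.42.0, other scalings, filters, sample sets and leaving out each library were the alternatives. Tested on simulated counts for the 0 h comparison over 21242 genes, the fit recovered 95% of 100 genes changed by 1 and 100% of 100 changed by 2 on the log2 scale. False passes numbered 5. Passing meant an adjusted p under 0.05, without the 2-fold minimum. The changed genes had means of at least 1 CPM, the clones were otherwise set equal, and the spread was that of the fit itself. These rates therefore do not describe genes of lower level or a comparison with as many differences as this one. Ratios against 1 to 3 counts carry exact 95% intervals, which like the floors of 3 counts cover counting error only.

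Genes were named by rule: protein-coding genes with the 12 highest and 12 lowest differences among those called with a mean of at least 8 CPM in the higher clone and no overlap; up to 4 called members of each list, or the 2 of highest level if none was called; the 10 on-or-silent genes of highest level in each direction; the 4 of smallest interaction p; and up to 3 per named window. Other genes were chosen after their values were seen. The comparison and the gene lists were chosen with earlier results of these data known.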

Additional observations from a re-analysis of the deposited data

Results flagged for a closer look

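For 19 of the genes in the tables of named genes, the difference between the clones changed from 0 h to a later time by at least 1 on the log2 scale, with an adjusted p under 0.05 for the interaction of clone and time (edgeR quasi-likelihood F test). Most of them were higher in AC1.112 at 0 h and closer later. Genes were named mostly for their difference at 0 h, and that choice favours a smaller difference later. The direction of change among these genes is therefore no separate result.

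Among signalling and immediate early genes, the difference at 72 h minus that at 0 h was -2.14 for FOSB, -1.34 for ARC, -1.14 for DUSP4, -1.04 for FOSL1 and -1.23 for SPRED2. It was -2.41 for the chemokine CXCL8 (2.96 at 0 h, 0.54 at 72 h, interaction adjusted p = 3.88e-05), -1.06 for TGFB1 and -1.11 for GADD45B. The p53 target TP53I3 changed by -1.20 (1.16 at 0 h, -0.04 at 72 h, 7.13e-05), EEF1A2 by -1.45, and MIR222HG, the host transcript of a microRNA, by -1.06 (2.43 and 1.37, 0.0364). The tight junction gene CLDN1 changed by -1.64 (2.02 and 0.38, 0.027) and the histone gene H2BC11, which may share reads with near copies, by -1.16 (1.41 and 0.25, 0.0476).

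At 24 h, the change from 0 h was -1.42 for the transcription factor SNAI1 (1.64 at 0 h, 0.22 at 24 h, 0.00852), -1.17 for YPEL3 (0.83 and -0.35, 1.07e-13) and -1.20 for PTCHD1 (4.46 and 3.26, 0.0195). For the inducible chaperone HSPA6 it was -1.02 (-1.36 and -2.38, 0.0419), so the clones moved further apart. ITGB4 changed by -1.87 (1.62 and -0.25, 0.0421), but its difference at 0 h rests on 1 library: without AC1.112 replicate 2 it was 1.04 (adjusted p = 0.0597). GNE changed by 2.82 (7.5 and 10.33, 0.00112), with levels near 0 in AC1.230 at both times.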

How the results depend on the processing

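The count of genes called at 0 h stayed within 1.5 times of 2070 under every alternative that kept the fold minimum. It was 1624 when only the 6 libraries of the clones at 0 h were fitted. Leaving out each library gave 1914 to 1998 at 0 h, 1950 to 2042 at 24 h, 1620 to 1688 at 72 h and 179 to 247 for the change with time. Without a minimum fold change the counts were 9719 at 0 h, 9331 at 24 h, 9105 at 72 h and 2094 for the change with time, because more genes then qualify. The 17 on-or-silent genes became 11 with at least 2 CPM required, 10 with no count allowed in the other clone and 38 with at most 10 counts allowed, and 18 to 23 with 1 library left out. Of 456 genes in the tables of named genes, 413 stayed on the same side of the threshold in each of the 15 alternatives that tested them and 43 did not in some; none reversed. Not every alternative tested all of them, since the low-count filters differ. The replicate block gave 2046, 2031, 1750 and 206 calls. In a check for pairing, same-numbered libraries of the clones gave r of 0.041, -0.066 and -0.075 at 0 h. The values were -0.119, 0.137 and 0.008 at 24 h, and -0.027, 0.001 and 0.063 at 72 h. These are not correlations of the levels themselves, which were at least 0.9956 between libraries of a clone at 0 h. Other-numbered libraries gave -0.043 to 0.102 at 0 h, so the numbers were not taken as pairs. Genes under about 1 CPM rest on few counts, so depth limits their precision. Of the named genes, 11 no longer had an adjusted p under 0.05 after thinning to the smallest library total, and 12 to 19 when 1 library was left out.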
